A study of Rattus norvegicus with 6 samples.

Results

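The mammalian circadian clock is a feedback loop of transcription factors that runs in nearly every cell, including the airway epithelium and macrophages of the lung. BMAL1, paired with CLOCK or its relative NPAS2, binds E-box sequences and activates the Period genes, Nr1d1, Dbp and the genes Bhlhe40 and Bhlhe41. The products of most of these feed back: PER proteins act with cryptochromes to inhibit the activating pair, REV-ERB alpha (the product of Nr1d1) represses Bmal1 through ROR elements, and DEC1 and DEC2 (the products of Bhlhe40 and Bhlhe41) compete at E-boxes. In rodent tissues the Bmal1 transcript usually peaks when the transcripts of Nr1d1, Dbp and the Period genes are near their trough.

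The genes described are these 10 clock genes, taken by name: the 3 activators Bmal1, Clock and Npas2, and 7 outputs and repressors, Per1, Per2, Per3, Nr1d1, Dbp, Bhlhe40 and Bhlhe41. All 15 probe sets annotated to one of them alone are shown, out of 31042 probe sets compared, and the 10 genes are among 14217 named genes. Lung RNA came from Lewis rats, an inbred strain. The silica group was 3 animals that inhaled crystalline silica dust (Min-U-Sil 5) at 6.2 mg/m3 for 6 hours daily on 5 days of each week, for 6 weeks. Controls were 3 animals in filtered air under like inhalation conditions, and each animal gave 1 array. The labels give neither age nor sex, and neither the delay from last exposure to tissue collection nor the hour of day at which lungs were taken, on which clock transcripts depend.

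Each value is a probe set's signal on a linear scale, and fold changes are silica minus control on the log2(signal + 16) scale, as estimate ± SE, which understates the change of dim probe sets. The test was limma's, with p adjusted by Benjamini-Hochberg over all 31042 probe sets and a threshold of 0.05. Under it 335 probe sets passed, 1.08% of those tested. Array medians lay between 7.38 and 7.42 on this scale, the median log2 fold change over all probe sets was -0.00104, and having 3 arrays a group limits how precise any value can be. The lung markers were bright in both groups: the 7 alveolar type 2 genes summed to between 99730 and 117159 in silica lungs, against 106764 to 111361 in control lungs.

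Promoter windows show which clock elements lie next to the annotated starts of these genes. RefSeq promoters (GRCr8, 250 bases before to 50 after a start) were held for all 10 genes, 12 windows in all, since Clock and Nr1d1 had 2 starts each. They were searched on both strands for the E-box CACGTG, the related E-prime box CACGTT, the core of the ROR and REV-ERB element TNGGTCA and the D-box TTANNTAA, to which DBP binds. None of these matches overlapped another. The 6 windows with a match are printed below from their upstream bases, 5′ to 3′ on the gene's strand, with each match in capitals, because they carry the elements through which the activators and repressors are known to act.
Bmal1, chr1:176766252-176766327, plus strand, ROR and REV-ERB element core 16 bases before the start: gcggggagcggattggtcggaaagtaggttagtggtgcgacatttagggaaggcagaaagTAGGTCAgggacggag
Per2, chr9:99496994-99497243, minus strand, D-box and E-prime box: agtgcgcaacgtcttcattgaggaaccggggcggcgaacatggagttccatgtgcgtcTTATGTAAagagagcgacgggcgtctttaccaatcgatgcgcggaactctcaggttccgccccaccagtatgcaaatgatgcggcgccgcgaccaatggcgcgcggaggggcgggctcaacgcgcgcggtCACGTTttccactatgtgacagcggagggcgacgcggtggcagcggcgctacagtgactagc
Nr1d1, start 1, chr10:84231921-84232046, minus strand, E-prime box read on the other strand: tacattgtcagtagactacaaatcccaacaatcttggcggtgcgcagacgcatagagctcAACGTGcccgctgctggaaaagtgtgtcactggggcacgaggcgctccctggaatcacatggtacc
Nr1d1, start 2, chr10:84229580-84229704, minus strand, E-box: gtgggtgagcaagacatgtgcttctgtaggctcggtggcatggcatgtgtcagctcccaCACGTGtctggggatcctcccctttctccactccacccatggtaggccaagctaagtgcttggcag
Bhlhe40, chr4:143174200-143174295, plus strand, E-box: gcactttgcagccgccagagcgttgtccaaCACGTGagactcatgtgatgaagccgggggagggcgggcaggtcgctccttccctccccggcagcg
Bhlhe41, chr4:180569356-180569463, minus strand, E-box: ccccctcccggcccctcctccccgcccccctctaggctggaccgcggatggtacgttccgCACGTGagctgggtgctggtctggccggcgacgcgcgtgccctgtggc

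The E-box was in 3 of the 12 windows, in Nr1d1, Bhlhe40 and Bhlhe41, and in 6.42% of all 33469 promoters of the table. The E-prime box was in Per2 and Nr1d1, and in 4.83% of all promoters. The ROR and REV-ERB element core was in the window of Bmal1, and in 11.14% of all promoters, and the D-box was in that of Per2, and in 5.84%. In the Bmal1 window a run of 10 bases, gaaagtaggt, occurs at 2 places, beginning 57 and 21 bases before the start, and the second copy runs into the matched core. The windows of Clock, Npas2, Per1, Per3 and Dbp held none of the 4 motifs, which says only that these letters are not in these 300 bases. Distances are from the start used for each window. The RefSeq gene spans of Bmal1, Per2 and Bhlhe41, and of Nr1d1 for its second start, begin further upstream. Printed bases of those windows therefore lie partly or wholly inside the gene. A match is a description of the sequence and not evidence of binding in these lungs.

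**Figure D1:**
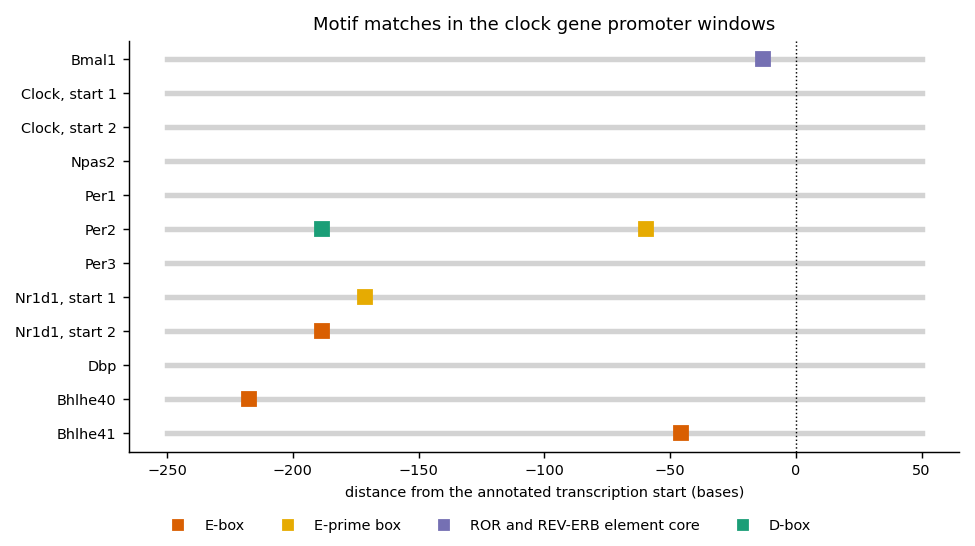
Motif matches (squares, colours by motif) in the 12 promoter windows of the 10 clock genes, by distance in bases from the annotated transcription start (dotted line), each grey bar being 1 window. Bmal1 carries the ROR and REV-ERB element core just before its start, and E-boxes or E-prime boxes lie in the windows of Per2, Nr1d1, Bhlhe40 and Bhlhe41.

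The mean signals of the activators were lower in silica lungs and those of the outputs and repressors higher, though most of these differences did not pass the test. Bmal1 fell and Bhlhe41 rose, and they were the 2 of 15 probe sets that passed the test. All 6 activator probe sets had negative log2 fold changes, as did 50.2% of all probe sets, with a median of -0.56. All 9 probe sets of outputs and repressors had positive ones, as did 49.8% of all probe sets, with a median of 0.62. The groups did not overlap in 10 of the 15 probe sets, against 25.6% of all probe sets: silica was entirely below control in 5 of the 6 activator probe sets (12.2% of all probe sets) and entirely above it in 5 of the 9 probe sets of outputs and repressors (13.3% of all). At an unadjusted p under 0.05, 5 of the 6 activator probe sets were lower in silica, where 7.94% of all probe sets were. Likewise 5 of the 9 probe sets of outputs and repressors were higher, where 9.35% of all probe sets were. Of the 6 activator probe sets 4 were of Clock, so they are not separate genes. By brightest probe set, 2 of the 3 activator genes were lower at that p, where 7.24% of all genes were. Of the 7 genes of outputs and repressors, 5 were higher, where 12.6% of all genes were. In these same genes the groups did not overlap, as in 12.2% (lower) and 13.3% (higher) of all probe sets. The share over all genes was not counted.

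**Figure D2:**
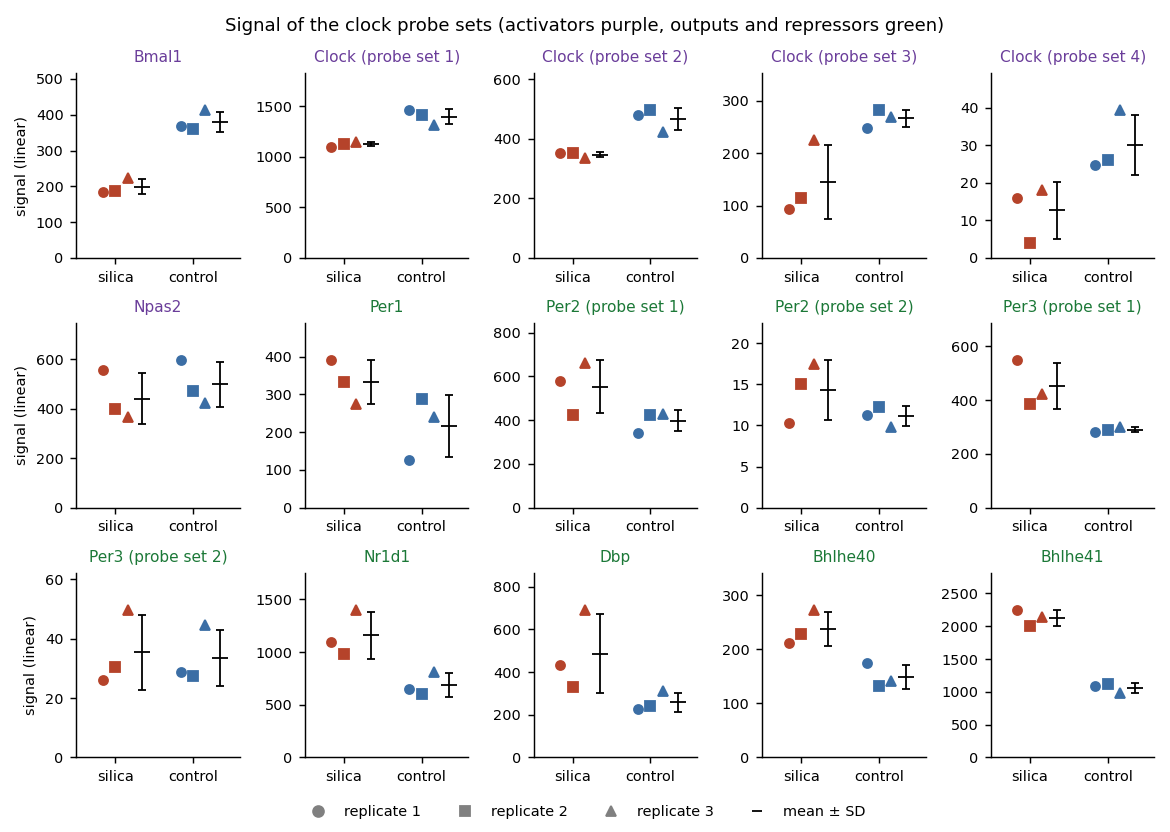
Linear signal of each of the 15 clock probe sets in silica (left, red) and control lungs (right, blue), 1 marker shape per replicate number, with the mean ± SD of 3 animals beside them and each vertical axis starting at 0. Where a gene has several probe sets they are numbered by falling brightness. For Bmal1, all 4 Clock probe sets, the brighter Per3 probe set, Nr1d1, Dbp, Bhlhe40 and Bhlhe41 the 2 groups do not overlap.

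Bmal1 encodes the factor without which the clock in mice does not run. It had signals of 185, 188 and 222.5 in silica lungs, against 368, 361 and 413 in control lungs. The groups did not overlap, and the highest silica array was well below the lowest control array. The means were 199 ± 20.7 in silica and 381 ± 27.9 in control (SD, n = 3 each), a control level 1.92 times that in silica, with a log2 fold change of -0.89 ± 0.12 (limma adjusted p = 0.0411). Of all probe sets, 0.805% had a lower log2 fold change. Among the 45 probe sets that passed as lower in silica, 0.145% of all tested, Bmal1 was the single clock gene of the 10.

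Clock, the partner of BMAL1, was measured by 4 probe sets, all with negative log2 fold changes and none past the threshold. The brightest gave 1101, 1131 and 1148 in silica lungs, against 1462, 1412 and 1319 in control lungs (log2 fold change -0.31 ± 0.09, limma adjusted p = 0.189). The second gave 351, 350.5 and 336 in silica lungs, against 479.6, 495.5 and 423 in control lungs (-0.41 ± 0.10, limma adjusted p = 0.137). In both, the silica arrays sat close together and below every control array. The third gave 94.1, 114 and 226 in silica lungs, against 248, 282 and 268 in control lungs (-0.90 ± 0.29, limma adjusted p = 0.207). Here silica replicate 3 was near the controls and the other 2 silica arrays far below them. The dimmest gave 16, 4.0 and 18.1 in silica lungs, against 24.8, 26.1 and 39.4 in control lungs (-0.71 ± 0.24, limma adjusted p = 0.220), and it had -0.47 without silica replicate 2. The Clock probe sets shared their direction but differed in size, from -0.31 to -0.90.

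Npas2 encodes a relative of CLOCK that can replace it as the partner of BMAL1. Its signals were 559, 398 and 369 in silica lungs, against 598, 474 and 424 in control lungs. The groups overlapped, and the log2 fold change was -0.18 ± 0.20 with a 95% confidence interval from -0.67 to 0.31 (limma adjusted p = 0.696). That interval holds 0 and the value of the brightest Clock probe set, and with single arrays left out the Npas2 value ran from -0.35 to -0.04.

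Bhlhe41, whose product DEC2 is an E-box repressor, had signals of 2245, 1999.7 and 2139 in silica lungs, against 1084.5, 1126 and 981 in control lungs. Every silica array was far above every control array. The means were 2128 ± 123 in silica and 1064 ± 74.7 in control (SD, n = 3 each), a silica level 2.00 times that in control, with a log2 fold change of 0.99 ± 0.11 (limma adjusted p = 0.0307). Higher in silica passed for 0.934% of all probe sets. Bhlhe40, whose product DEC1 is the relative of DEC2, had 212, 229 and 274 in silica lungs, against 175, 133 and 142 in control lungs, with no overlap between the groups. Its log2 fold change was 0.62 ± 0.15 and did not pass (limma adjusted p = 0.127).

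Bhlhe40 and Bhlhe41 are also expressed by alveolar macrophages in mice, and some macrophage markers were higher in silica lungs. Of 7 measured macrophage markers 4 rose past the threshold (Cd68, C1qa, C1qb and Itgam), where 1.55% of all genes did. Adgre1, Csf1r and Mrc1 did not pass, with log2 fold changes of 0.62 ± 0.11, 0.10 ± 0.13 and 0.03 ± 0.12. None of the 7 was near 0 (the lowest averaged 177 over the 6 arrays). Their summed signal was 14156 to 15475 in silica lungs, against 10106 to 10415 in control lungs. Which macrophages the signals came from was not tested. Of 8 T and NK cell markers 6 rose past the threshold, against the same 1.55% of all genes. Cd8a and Cd4 did not pass, with log2 fold changes of 1.03 ± 0.19 and -0.01 ± 0.32. The 8 markers had sums of 5174 to 5927 in silica lungs and 2369 to 2696 in control lungs. None of 4 neutrophil markers passed (1 was higher at an unadjusted p under 0.05, as were 12.6% of all genes), with sums of 9292 to 15911 in silica lungs and 5256 to 6889 in control lungs. All 5 alveolar type 1 markers had lower signals in silica, none past the threshold and 3 at an unadjusted p under 0.05, where 7.24% of all genes were lower, with sums of 57219 to 61560 in silica lungs and 68082 to 71847 in control lungs. The part of these cell types in the clock gene values was not tested, and in whole lung fewer cells of a type and less RNA per cell cannot be told apart.

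Nr1d1, the gene of the repressor REV-ERB alpha, had signals of 1092, 979 and 1403 in silica lungs, against 647, 606 and 815 in control lungs. The groups did not overlap, and replicate 3 was the highest array of each. The silica mean was 1.68 times the control mean, with a log2 fold change of 0.73 ± 0.18 that did not pass (limma adjusted p = 0.135). Dbp, a D-box activator and a direct output of the clock, had 433, 332 and 692 in silica lungs, against 226, 239.6 and 309 in control lungs. These groups did not overlap either, but the silica arrays were spread over a wide range. Its silica mean was 1.88 times the control mean, and with that spread the log2 fold change of 0.82 ± 0.28 did not pass (limma adjusted p = 0.219). Without silica replicate 3 it was 0.54.

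The Period genes encode the inhibitors that act with cryptochromes. The brighter Per3 probe set had 549, 384 and 424 in silica lungs, against 282, 288 and 301.5 in control lungs, and the groups did not overlap. Its log2 fold change was 0.60 ± 0.15 and did not pass (limma adjusted p = 0.137). Per1 had 391, 331.5 and 275 in silica lungs, against 127, 287 and 239 in control lungs. Control replicate 1 was far below the other controls and control replicate 2 lay above silica replicate 3, so the groups overlapped. The Per1 log2 fold change was 0.63 ± 0.30, with a 95% confidence interval from -0.09 to 1.36 (limma adjusted p = 0.342). Without control replicate 1 it was 0.31 ± 0.19 (limma adjusted p = 0.523).

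Per2 in its brighter probe set had 577, 423 and 662 in silica lungs, against 342, 422 and 429 in control lungs. Silica replicate 2 lay at the level of the higher controls, and the log2 fold change was 0.45 ± 0.19, with a 95% confidence interval from -0.02 to 0.91 (limma adjusted p = 0.300). A dim probe set of each of Per2 and Per3 showed little. The dim Per2 probe set had 10.3, 15.1 and 17.5 in silica lungs, against 11.3, 12.2 and 9.8 in control lungs (log2 fold change 0.15 ± 0.12, and 0.08 to 0.25 with single arrays left out). The dim Per3 probe set had 26.0, 30.4 and 49.7 in silica lungs, against 28.6, 27.4 and 44.5 in control lungs (log2 fold change 0.04 ± 0.22). The groups overlapped in each, and the sign of the dim Per3 value turned when some single arrays were left out.

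**Figure D3:**
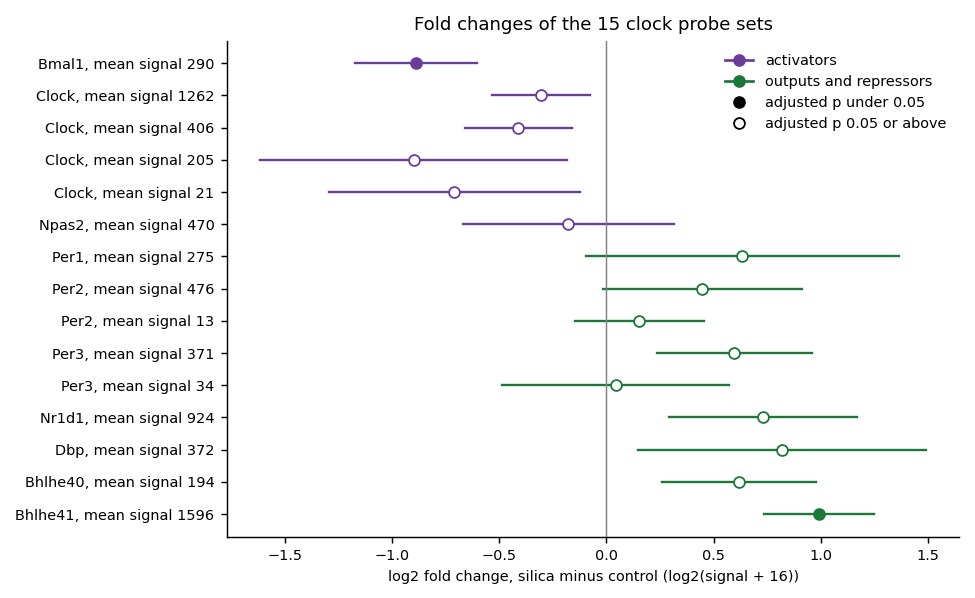
Log2 fold change (silica minus control, log2(signal + 16) scale) of the 15 clock probe sets, with the 95% confidence interval as a line and a filled point where the adjusted p was under 0.05, each labelled with its mean signal over the 6 arrays. The activators run from -0.90 to -0.18 and the outputs and repressors from 0.04 to 0.99, with Bmal1 and Bhlhe41 filled.

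Set side by side by their brightest probe sets, the log2 fold changes of the 3 activators had their median at -0.31 and those of the 7 outputs and repressors at 0.63, a difference of -0.94. Over all 14217 genes the median was 0.02. The difference was also taken within each array, from the log2 difference of each gene to its control mean. The median of the activators minus that of the outputs and repressors was -1.06, -0.81 and -1.22 in the silica arrays, against 0.14, -0.05 and -0.19 in the control arrays. The 2 groups of arrays lay apart on this measure, which is given without a test because the genes were chosen with earlier results known. It restates the fold changes above array by array, and the control arrays lie near 0 by construction. All 7 outputs and repressors were above their control mean on each of the 3 silica arrays. The 3 activators were below theirs on silica replicates 2 and 3, and 2 of the 3 on silica replicate 1, where Npas2 was 0.17 above. The share of all genes that lay on 1 side of their control mean in this way was not counted.

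**Figure D4:**
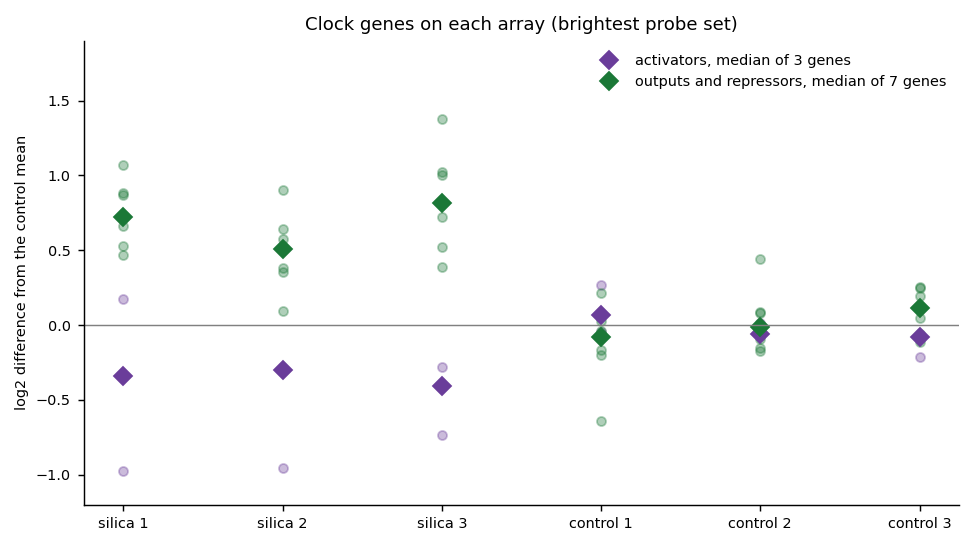
Log2 difference of each clock gene (brightest probe set) from its control mean on each array, silica arrays left and control arrays right, with pale points for genes and diamonds for the median of the 3 activators (purple) and of the 7 outputs and repressors (green). The activator medians run from -0.41 to -0.30 on the silica arrays, and the output and repressor medians from 0.51 to 0.81.

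The arrays of a group also differed among themselves. Silica replicate 2 was the lowest silica array for 5 of the 7 outputs and repressors (Per2, Per3, Nr1d1, Dbp and Bhlhe41), and silica replicate 3 was the highest for 4 (Per2, Nr1d1, Dbp and Bhlhe40). Among the controls, replicate 3 was the highest for 4 (Per2, Per3, Nr1d1 and Dbp) and replicate 1 the lowest for 4 (Per1, Per2, Per3 and Dbp). Nr1d1, Dbp and Per2 thus had their highest array in replicate 3 of both groups. Per1 did not follow them: its highest silica array was replicate 1 and its highest control array replicate 2.

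Further clock genes were read from a list of mixed roles. None of 14 measured further core clock genes and modulators passed, where 1.67% of all genes did (1.55% higher and 0.12% lower), and their median log2 fold change was 0.05. Of these, 2 were lower at an unadjusted p under 0.05 and none higher, where 7.24% and 12.6% of all genes were. They were Rora and Rorb, which encode activators that bind the same elements as REV-ERB alpha. Rora had 218, 248 and 289.6 in silica lungs, against 346, 341 and 341 in control lungs (log2 fold change -0.43 ± 0.12, limma adjusted p = 0.174). Rorb was dim, with means of 34.0 ± 7.83 in silica and 50.9 ± 10.6 in control (SD, n = 3 each; log2 fold change -0.42 ± 0.17).

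The cryptochrome genes Cry1 and Cry2, partners of the Period genes in repression, had log2 fold changes of 0.03 ± 0.16 and 0.13 ± 0.14, and their groups overlapped. A dimmer Cry2 probe set had -0.53 ± 0.40, also with overlap. Nr1d2, the relative of Nr1d1, had 2354, 1763 and 2574 in silica lungs, against 1999, 1879 and 2140.0 in control lungs (0.14 ± 0.16). As with Nr1d1 the highest array of each group was replicate 3, but here the groups overlapped. The further Nr1d2 probe sets had -0.29 and 0.01. Csnk1e, a kinase gene whose product phosphorylates PER proteins, had 0.19 ± 0.11, and its further probe sets had -0.27 and 0.02.

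None of 17 measured genes of D-box factors and rhythmic outputs passed, and their median was 0.18. At an unadjusted p under 0.05, 3 were higher and 1 lower, near the shares of all genes (12.6% and 7.24%). Hlf, a D-box activator related to Dbp, had 385.5, 412 and 454 in silica lungs, against 289, 344 and 333 in control lungs (0.36 ± 0.12, limma adjusted p = 0.207), while its 3 further probe sets had -0.495, -0.001 and 0.01. Tef, the third member of that family, had 0.16 ± 0.11, with -0.27 and -0.14 in further probe sets. Cdkn1a, a cell cycle inhibitor, had 0.40 ± 0.10 (limma adjusted p = 0.148), with 0.07 in a dim further probe set. The lung monooxygenase gene Fmo2 had -0.49 ± 0.11 (limma adjusted p = 0.104), with -0.52 and -0.81 in further probe sets.

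Per1 is a direct target of the glucocorticoid receptor and responds like an immediate early gene, so genes of both kinds were set beside it. None of 12 glucocorticoid targets passed, with a median of 0.07, where 1.67% of all genes passed. At an unadjusted p under 0.05, 2 were higher and 3 lower, beside 12.6% and 7.24% of all genes. Tsc22d3, which encodes the glucocorticoid-induced leucine zipper protein, had 4336, 3408.5 and 3798 in silica lungs, against 2230.4, 2875.5 and 2362 in control lungs (0.63 ± 0.15, limma adjusted p = 0.124). Fkbp5, a chaperone gene induced by the receptor, had 0.54 ± 0.19 and, in a dimmer probe set, 0.85 ± 0.14 (limma adjusted p = 0.0595). Errfi1 had -0.31 ± 0.10, so the 3 did not share a direction. None of 13 immediate early genes passed, with a median of 0.23. At an unadjusted p under 0.05, 2 were higher and 1 lower, near the 12.6% and 7.24% of all genes. Atf3 had 0.65 ± 0.14 (limma adjusted p = 0.105), Egr2 0.50 ± 0.12 and Dusp6 -0.24 ± 0.10. A dim further Egr2 probe set had 0.14, and further Dusp6 probe sets had 0.02 and -0.11.

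The calls on Bmal1 and Bhlhe41 are those of the main fit to all 6 arrays, and they depended on the fit chosen. On the same 6 arrays both also passed with quantile normalization, median centring, array weights and pseudocount 64. They passed as well with a gene's probe sets averaged, with the dimmer 50% left out and with an intensity trend and robust spread. With that filter 1675 of all 15521 probe sets passed, and with the trend 1862 of 31042. Neither passed with pseudocount 1 (limma adjusted p = 0.0698 for Bmal1 and 0.0588 for Bhlhe41), with no moderation or with the replicate block. With any 1 array left out neither passed: the adjusted p ran from 0.0981 to 0.139 for Bmal1 and from 0.0896 to 0.117 for Bhlhe41, while the log2 fold changes stayed between -0.97 and -0.83 and between 0.93 and 1.03. The 3-prime to 5-prime signal ratio of the actin and GAPDH controls, a measure of RNA quality, averaged 1.15 to 1.68 on the log2 scale in silica arrays, against 0.996 to 1.23 in control arrays, and with it as a covariate no probe set passed. Bmal1 then had a log2 fold change of -0.73 ± 0.12 (limma adjusted p = 0.234) and Bhlhe41 of 0.93 ± 0.14 (limma adjusted p = 0.210), and 5 other clock probe sets moved most in proportion. The third Clock probe set had -0.35 with the covariate (-0.90 without it), Npas2 -0.50 (-0.18 without it) and Dbp 1.28 (0.82 without it). The dim Per2 probe set had 0.28 (0.15 without it) and the dim Per3 probe set 0.46 (0.04 without it). No sign turned among the 15.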

How the data were processed

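Lung RNA was labelled with biotin as cRNA by in vitro transcription, per the labels' protocols, and 1 array was measured per animal. The deposited intensity values are linear signals, 1 per probe set and array, none below 0.1. No label or header names the software that summarised them. With 2% trimmed at both ends, array means were 500.14 to 500.15, so each array was scaled to 1 level before these signals were deposited. Of 31099 probe sets, 57 controls were left out. The platform annotation gave 20826 probe sets 1 gene, of which 20758 matched the RefSeq table (GRCr8) by gene identifier, 436 several genes and 9780 none. A gene is represented by its brightest probe set unless all are given.

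Values were analysed as log2(signal + 16) with limma 3.58.1 in R 4.3.3 (lmFit and eBayes on group alone, with 4 residual degrees of freedom and a prior of 2.18), without further normalization. The smallest exact permutation p of 3 against 3 arrays is 0.1. The fit was tested on simulated data. The 10 genes, the lists and the rule for naming (every probe set of the 10 genes, and in each further list the 3 genes with the smallest p) were chosen with earlier results of these data known. Alternatives were normalization, a filter on dim probe sets, pseudocounts, the spread, array weights, a replicate block, an RNA quality covariate, arrays left out and the mean of a gene's probe sets.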

Additional observations from a re-analysis of the deposited data

How the results depend on the processing

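Over 18 alternatives, 14 of the 15 clock probe sets kept the sign of their log2 fold change wherever they were fitted. The exception was the dim Per3 probe set, which turned to -0.02 without control replicate 1, -0.04 without control replicate 2 and -0.15 without silica replicate 3, in a range from -0.15 to 0.20 over the arrays left out. The number of clock probe sets past the threshold was 2 with quantile normalization, median centring, array weights and pseudocount 64. It was 6 (4 higher, 2 lower) with the dimmer 50% left out, which removed 3 of the 15, and 6 with an intensity trend and robust spread. It was 0 with pseudocount 1, with no moderation, with the replicate block, with the RNA quality covariate and without control replicate 3 and silica replicate 1 together, and ranged from 0 to 0 with 1 array left out. The difference between the activator and the output medians moved to -1.25 with the RNA quality covariate and to -1.22 with each gene's probe sets averaged, which gives the dimmer Clock probe sets equal weight; with 1 array left out it ranged from -1.08 to -0.91.

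Over all 31042 probe sets, 335 passed. With the dimmer 50% left out 1675 of 15521 passed (1044 higher and 631 lower), and with the trend 1862 of 31042 (1141 and 721). The count was 919 with pseudocount 64 (707 and 212), 43 with pseudocount 1, 40 with no moderation and 1 with the replicate block. It was 0 with the RNA quality covariate or with control replicate 3 and silica replicate 1 left out. With 1 array left out the count ranged from 0 to 12. The cause was not tested. With the dimmer 50% left out 1 of 12 further core clock genes and 2 of 15 rhythmic output genes passed. So did 1 of 12 glucocorticoid targets and 2 of 11 immediate early genes, beside the 1675 of 15521 probe sets. With the trend these were 0, 2, 1 and 2 of the 14, 17, 12 and 13 measured, beside 1862 of 31042 probe sets. With pseudocount 64 they were 0, 1, 0 and 1, beside 919 of 31042. With probe sets averaged 1 of the 12 glucocorticoid targets passed.

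The animals were not treated as paired by replicate number. Deviations of same-numbered arrays from their group means correlated at 0.092, 0.035 and 0.088 over probe sets. Those of differently numbered arrays correlated at -0.079 to -0.002, so each array correlated best with its own number. Correlations this small cannot settle whether the numbers pair animals. With the replicate block Bmal1 and Bhlhe41 each had an adjusted p of 0.153.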

Other observations

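The genes whose log2 values over the 6 arrays were most like those of Bmal1, among 637 genes with a mean of at least 7 and a range of at least 1, were Gstm2, Apln, Rgs5, Pcsk6 and Wac, with Pearson's r between 0.966 and 0.975. Their log2 fold changes ran from -0.88 for Wac to -0.75 for Apln. The 5 most opposite were RT1-CE12, Pstpip1, Fetub, Stat2 and Slc26a6, with r between -0.997 and -0.995. Their log2 fold changes ran from 0.81 for Slc26a6 to 1.19 for Pstpip1. Because the genes of both sides were picked by their likeness to Bmal1, calls on them are not given. These values share the contrast between the groups, so they describe size and order on these arrays.

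Nr1d1 overlaps Thra, the thyroid hormone receptor alpha gene on the other strand, by 1061 bases in GRCr8. The 3 Thra probe sets had log2 fold changes of -0.21, -0.38 and -0.12, none past the threshold, against 0.73 for Nr1d1.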
